A study of Capra hircus with 6 samples.

Results

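The peptides through which the hypothalamus drives the pituitary outside the gonadal axis, with their binding protein and receptors, were examined in hypothalamus of female Anhuai goats. The genes were chosen by name: TRH, CRH, SST, GHRH, CRHBP, CRHR1, SSTR1, SSTR2 and UCN3. Of these 9 genes, 8 were matched by gene identifier among the 20225 genes of the mRNA table, and TRH was not matched and is not analysed here. The goats were kept alike on one farm, 3 of them pubertal, aged 4.5 to 5.0 months and killed in the late follicular phase, and 3 prepubertal, aged 2.5 to 3.0 months. Each goat gave 1 strand-specific RNA-seq library of hypothalamic tissue. All pubertal goats were older than the prepubertal ones, so stage and age cannot be told apart. The libraries are bulk tissue, in which fewer cells of a type and less RNA per cell cannot be told apart.

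Hypophysiotropic peptides are made by small groups of hypothalamic neurons and released at the median eminence into the portal vessels that run to the anterior pituitary. CRH drives the corticotropes and so the adrenal cortex, TRH drives the thyrotropes, and GHRH and SST (somatostatin) act against each other on growth hormone release, with SST also restraining thyrotropin. CRHBP binds CRH outside the cell and keeps it from its receptor CRHR1, and UCN3 (urocortin 3) is a relative of CRH that prefers the receptor CRHR2. SST is in addition a transmitter of many inhibitory neurons, and SSTR1 and SSTR2 are found on neurons as well as on pituitary cells.

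None of the 8 genes separated the stages. In limma on log2(FPKM + 1), 0 of the 8 had an adjusted p-value under 0.05, against 0 of the 16397 genes tested (0%). Without adjustment the same threshold was met by 0 of the 8 and by 846 of all genes (5.16%), of which 575 were higher (3.51%) and 271 lower (1.65%) in pubertal goats. That split was 454 higher of 861 with median centring and 462 of 839 with quantile normalization. The ranges of the pubertal and prepubertal libraries overlapped for all 8 genes, while they did not overlap for 9.75% of all genes tested, with the pubertal libraries lower in 3.84%. Without pubertal replicate 3, which stood apart in marker genes given below, 0 of the 8 passed either threshold. Without pubertal replicate 2, 1 of the 8 (SSTR2) had an unadjusted limma p-value under 0.05, as had 1140 of 16397 genes. Without prepubertal replicate 3, 1 of the 8 (GHRH) had such a value, as had 702 of 16397 genes. In both cases 0 of the 8 passed after adjustment. limma with voom weights on recovered fragments also called 0 of 15095 genes after adjustment, and 742 at an unadjusted p-value under 0.05. It called 0 of 7 genes of this group at either threshold, UCN3 having too few fragments to be included. SST is among these 7 with rounded values only, since its fragments did not come out as whole numbers. FPKM is the number of fragments scaled by transcript length and library depth, and a difference on the log2(FPKM + 1) scale understates the change of genes with low values. All 8 genes passed the minimum mean of 0.1 FPKM.

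The depth behind each value was recovered from the FPKM steps. In genes with a single transcript the low FPKM values were whole multiples of the value of 1 fragment, and between 99.8% and 99.9% of the values up to 200 fragments came out within 0.1 of a whole number in each library. The libraries were scaled to between about 17300000 and 23600000 fragments, with pubertal replicate 3 the lowest. These numbers describe the scaling of the FPKM and are below the mapped reads that the paper reports. A single fragment on a transcript of 1 kb was worth 0.0590 FPKM in the median library. Intervals from fragments cover counting error only.

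The 8 genes spanned a wide range of levels. SST stood highest, with a mean of 188 FPKM ± 25.3 (SD, n = 6 goats), above 97.1% of the genes tested. GHRH followed with 21.4 ± 5.52 FPKM and CRHBP with 16.2 ± 3.32 FPKM (SD, n = 6 each). Receptors were lower, at 5.74 ± 0.759 FPKM for SSTR1, 4.20 ± 0.773 FPKM for SSTR2 and 2.81 ± 0.676 FPKM for CRHR1 (SD, n = 6 each). CRH itself had 1.69 ± 0.526 FPKM (SD, n = 6), above 19.0% of the genes tested, and UCN3 stood last, between 0 and 0.419 FPKM. Each gene was above the next in the order in 6 of 6 libraries, except GHRH against CRHBP, where it was so in 5 of 6 (exact two-sided sign-flip permutation test, adjusted p = 0.156 over the 7 neighbours). For the other neighbours the adjusted p was 0.0365, and the unadjusted p of 0.0312 is the smallest that 6 libraries allow. The neighbours were set by the mean levels in these same libraries, so these tests give no independent support for the order. The SST transcript listed is 351 nt long, close to the length by which transcripts were shortened for scaling (between 232 and 262 nt), so its level depends more on that scaling than the levels of the longer transcripts, and its fragments could not be recovered as whole numbers. The GHRH transcript, at 477 nt, is the next shortest, so the same limit touches its level and its place beside CRHBP, whose transcript has 1543 nt.

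**Figure D1:**
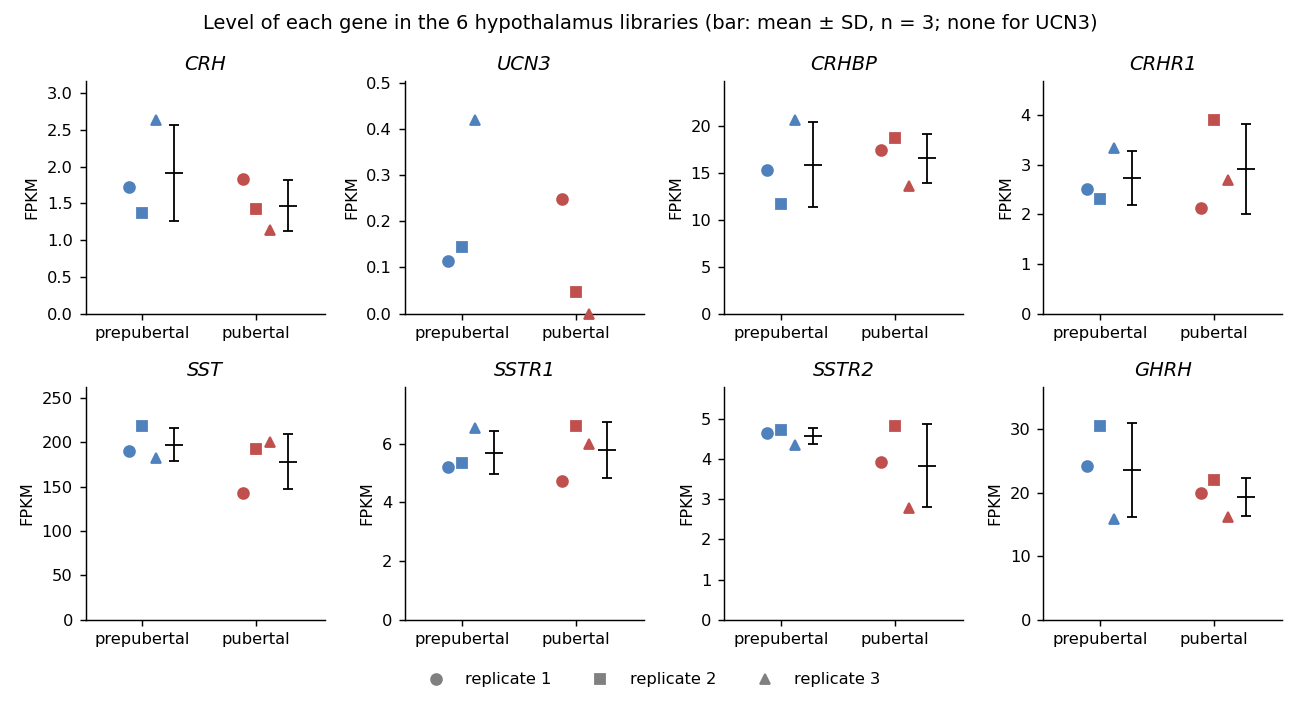
FPKM (vertical axes, each from 0) of the 8 genes in the 3 prepubertal and 3 pubertal libraries. Marker shapes give the replicate number and black bars the mean ± SD of each stage (none for UCN3). The stages overlap in every panel, and prepubertal replicate 3 is highest for CRH, UCN3 and CRHBP and lowest for GHRH.

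CRH, the peptide that starts the stress axis, measured 1.83, 1.43 and 1.14 FPKM across pubertal replicates 1 to 3, against 1.72, 1.37 and 2.63 FPKM across prepubertal replicates 1 to 3. Prepubertal replicate 3 lay above the other goats, and the other 5 libraries were mixed between the stages. These values rested on between 14 and 43 fragments per library. In pubertal replicate 3 the 14 fragments gave an exact Poisson 95% interval of 0.624 to 1.91 FPKM, and in prepubertal replicate 3 the 43 fragments gave 1.91 to 3.55 FPKM. The pubertal mean was 1.47 ± 0.347 FPKM and the prepubertal mean 1.91 ± 0.653 FPKM (SD, n = 3 each). The log2 fold change was -0.22 with a 95% interval from -0.65 to 0.20 (adjusted p = 0.962 from limma), which leaves room for a level between 0.639 and 1.15 times the prepubertal one on the FPKM + 1 scale. With each library left out in turn it ran from -0.36 without prepubertal replicate 2 to -0.05 without prepubertal replicate 3.

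CRH had 2 listed transcripts, of 938 nt (XM_005689029.2) and 964 nt (XM_013969156.1). The longer one held 43.9% of the CRH signal in pubertal replicate 3 and 40.2% in prepubertal replicate 2, and at most 0.0248% in the other 4 libraries. So it appeared in 1 goat of each stage, among libraries of 14 and 22 CRH fragments. The split between transcripts of nearly the same length is an estimate of the authors' software, and the sum by gene does not depend on it.

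CRHBP had a far higher FPKM than CRH, whose peptide it binds, while protein and peptide were not measured. It measured 17.4, 18.7 and 13.7 FPKM across pubertal replicates 1 to 3, against 15.3, 11.7 and 20.7 FPKM across prepubertal replicates 1 to 3. The lowest and the highest goat were both prepubertal, with the pubertal goats between them. The fragments ran from 308 to 632 per library. The stage means were 16.6 ± 2.62 and 15.9 ± 4.52 FPKM (SD, n = 3 each), with a log2 fold change of 0.08 and a 95% interval from -0.38 to 0.54 (adjusted p = 0.984 from limma).

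The ratio of CRHBP to CRH within a library was the only measure of 5 ratios compared in which the stages did not overlap. It was 9.50, 13.1 and 12.0 in pubertal replicates 1, 2 and 3 and 8.93, 8.51 and 7.84 in prepubertal replicates 1, 2 and 3. All 3 pubertal goats thus lay above the prepubertal ones, although pubertal replicate 1 only narrowly so. The stage difference was 0.31 on the scale of log2(FPKM + 1), from a mean of 2.83 ± 0.167 in pubertal and 2.53 ± 0.0950 in prepubertal goats (SD, n = 3 each). The exact two-sided permutation test gave p = 0.1, the smallest that 3 libraries against 3 allow, and 0.5 after adjustment over the 5 ratios. Without a pseudocount the difference was 0.44, with a standard error of 0.25 from counting the CRH and CRHBP fragments alone. The difference did not pass the test, and the gene-wise background of stages that do not overlap was 9.75%.

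The receptor CRHR1 measured 2.13, 3.90 and 2.69 FPKM across pubertal replicates 1 to 3, against 2.52, 2.32 and 3.34 FPKM across prepubertal replicates 1 to 3. Both the lowest and the highest value were pubertal. The stage means were 2.91 ± 0.907 and 2.72 ± 0.542 FPKM (SD, n = 3 each), on 98 to 187 fragments per library, with a log2 fold change of 0.05 and a 95% interval from -0.38 to 0.49 (adjusted p = 0.989 from limma). Nearly all CRHR1 signal came from the coding transcript XM_005693962.2, apart from 9.14% in pubertal replicate 2 on a noncoding form (XR_001296918.1). The ratio of CRHR1 to CRH ran from 1.16 to 2.73 in pubertal and from 1.27 to 1.69 in prepubertal libraries (exact permutation p = 0.4, adjusted 0.625).

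UCN3 was close to the limit of what these libraries could measure. Its values of 0.247, 0.0474 and 0 FPKM in pubertal and 0.114, 0.144 and 0.419 FPKM in prepubertal replicates 1, 2 and 3 rested on 5, 1 and 0 against 2, 3 and 9 fragments. Pubertal replicate 3 was listed at 0, which at its depth allows a level of up to 0.189 FPKM (3 fragments). In all there were 6 fragments in the pubertal and 14 in the prepubertal libraries, 9 of the latter from prepubertal replicate 3. The log2 fold change was -0.16 with a 95% interval from -0.48 to 0.17 (adjusted p = 0.962 from limma). With a pseudocount of 0.1 FPKM it was -0.80 with an interval from -2.20 to 0.60, so the size of a stage difference is poorly bounded by these few fragments.

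SST measured 142, 193 and 199.7 FPKM across pubertal replicates 1 to 3, against 190.3, 218 and 183 FPKM across prepubertal replicates 1 to 3. Pubertal replicate 1 lay below all other goats and the other 5 were close together. The stage means were 178 ± 31.3 and 197 ± 18.7 FPKM (SD, n = 3 each), with a log2 fold change of -0.16 and a 95% interval from -0.49 to 0.17 (adjusted p = 0.962 from limma). With each library left out in turn it ran from -0.25 without pubertal replicate 3 to -0.003 without pubertal replicate 1. For inhibitory interneurons outside the hypothalamus, only some of which make SST, 4 genes were listed: LHX6, NPY, NOS1 and PVALB. These summed to between 34.3 and 108 FPKM in pubertal and between 64.6 and 206 FPKM in prepubertal libraries. Most of each sum was NPY, which arcuate neurons make as well. NOS1 was between 8.66 and 12.6 FPKM and PVALB between 3.32 and 7.55 FPKM. LHX6, a factor of such neurons, was between 0.133 and 0.687 FPKM, and the part of these cells in the SST signal was not tested.

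SSTR1, an inhibitory receptor for SST, spanned the narrowest range of the group. It measured 4.74, 6.61 and 5.98 FPKM across pubertal replicates 1 to 3, against 5.21, 5.34 and 6.53 FPKM across prepubertal replicates 1 to 3. The highest goat of all was 1.39 times the lowest, and the stages were interleaved. The log2 fold change was 0.01 with a 95% interval from -0.32 to 0.34, which bounds the pubertal level between 0.802 and 1.27 times the prepubertal one on the FPKM + 1 scale (adjusted p = 0.998 from limma).

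SSTR2, the other SST receptor examined, measured 3.92, 4.82 and 2.77 FPKM across pubertal replicates 1 to 3, against 4.64, 4.71 and 4.34 FPKM across prepubertal replicates 1 to 3. The prepubertal goats were close together, and the pubertal goats spread on both sides of them, with pubertal replicate 3 lowest at 99 fragments. The log2 fold change was -0.23 with a 95% interval from -0.61 to 0.15 (adjusted p = 0.962 from limma), and it was -0.06 without pubertal replicate 3. SSTR1 exceeded SSTR2 in 6 of 6 libraries, by a median ratio of 1.29. The ratio was 2.16 in pubertal replicate 3 and between 1.12 and 1.51 in the other libraries. The stages overlapped in this ratio (exact permutation p = 0.5, adjusted 0.625), in SSTR1 to SST (p = 0.4, adjusted 0.625 by the exact test) and in SSTR2 to SST (exact p = 1, adjusted 1).

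**Figure D2:**
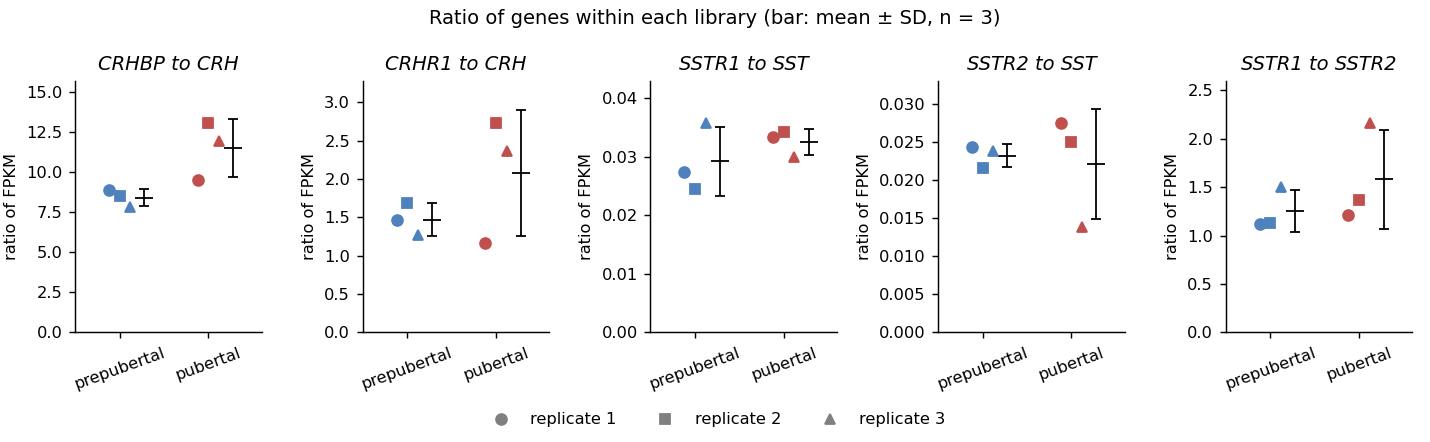
Ratio of the FPKM of binding protein or receptor to peptide, and of both SST receptors, within each library (vertical axes, each from 0), with the mean ± SD of each stage. Only CRHBP to CRH has all 3 pubertal goats, from 9.50 to 13.1, above the prepubertal ones, from 7.84 to 8.93.

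GHRH, the peptide that releases growth hormone, measured 19.9, 22.0 and 16.1 FPKM across pubertal replicates 1 to 3, against 24.2, 30.5 and 15.8 FPKM across prepubertal replicates 1 to 3. The prepubertal goats held both the highest and the lowest value, and the ranges overlapped. The fragments ran from 66 to 160 per library. The stage means were 19.3 ± 2.97 and 23.5 ± 7.38 FPKM (SD, n = 3 each), with a log2 fold change of -0.23 and a 95% interval from -0.74 to 0.28 (adjusted p = 0.962 from limma). Of the 6 arcuate markers, GHRH among them, 5 had a log2 fold change below 0 and 1, POMC, above 0. NPY was at -1.25, KISS1 at -0.19 and TAC3 at -0.05, and 0 of the 6 passed the adjusted threshold. AGRP and NPY were highest in prepubertal replicate 2, as GHRH was. KISS1 was highest in pubertal replicate 2, TAC3 in prepubertal replicate 3 and POMC in pubertal replicate 3. AGRP, a feeding peptide, was at 22.7, 5.69 and 28.3 FPKM for the pubertal and 97.5, 176 and 22.3 FPKM for the prepubertal replicates 1 to 3 (log2 fold change -2.15, adjusted p = 0.883 from limma). POMC, the precursor of melanocortins, was at 34.4, 85.1 and 429 FPKM for the pubertal and 47.4, 22.9 and 24.3 FPKM for the prepubertal replicates 1 to 3 (log2 fold change 1.83, adjusted p = 0.959 from limma). These were the 2 arcuate markers of 6, GHRH among them, with an unadjusted p-value under 0.05, which 5.16% of all genes tested had. Their directions were opposite and their stages overlapped. The 6 markers summed to between 116 and 580 FPKM in pubertal and between 125 and 435 FPKM in prepubertal libraries. The sum of 580 FPKM was that of pubertal replicate 3, most of it POMC. GH1, a pituitary marker, was listed above 0 in that library alone, at 7.79 FPKM. The part of pituitary cells in POMC, and of the 6 markers in the GHRH values, was not tested.

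**Figure D3:**
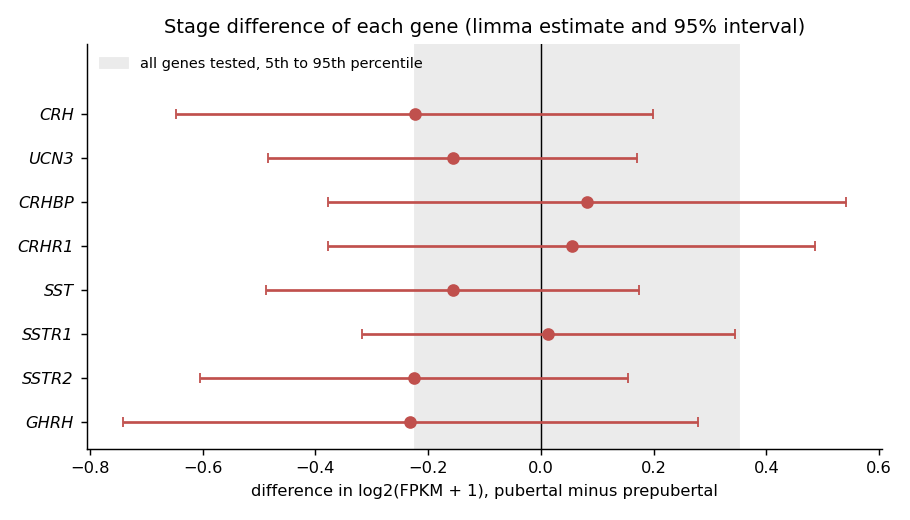
Difference in log2(FPKM + 1) between pubertal and prepubertal goats (horizontal axis) for the 8 genes, with the 95% interval from limma. All 8 intervals include 0, and the grey band holds the middle 90% of all genes tested, from -0.22 to 0.35.

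The spread between goats of a stage exceeded the counting error for each of the 7 genes whose fragments came out whole, which leaves out SST. For CRHBP the coefficient of variation within a stage was 22.7% against 4.71% from counting, the largest ratio of the 7, at 4.83. It was 26.3% against 9.74% for GHRH, 26.5% against 8.92% for CRHR1 and 17.6% against 7.34% for SSTR2. For SSTR1 it was 14.8% against 8.21%. Counting took a larger part in CRH, with 31.0% against 19.9%, and in UCN3, with 93.2% against 54.9%.

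**Figure D4:**
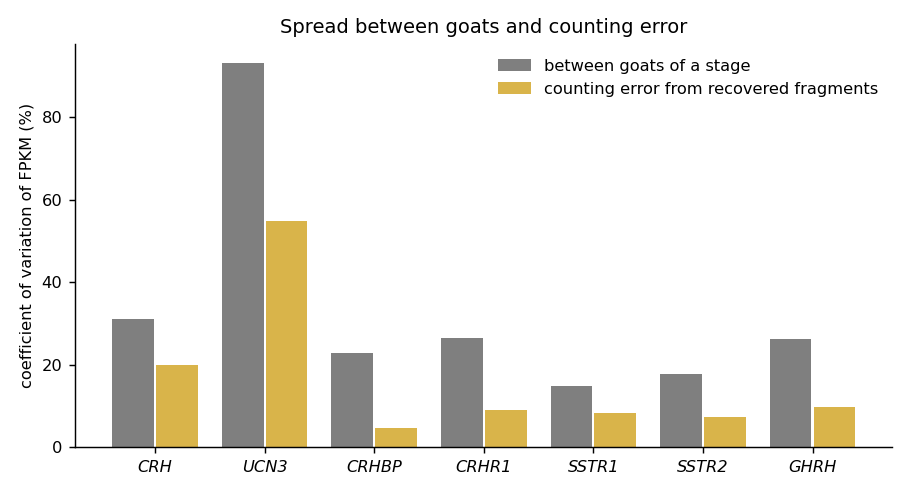
Coefficient of variation of FPKM in percent (vertical axis) for 7 genes, between goats of a stage (grey) and expected from the number of recovered fragments (yellow). The grey bar is the taller in each pair, by 4.83 times for CRHBP and by 1.56 times for CRH.

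Genes around these peptides were counted from lists of receptors, enzymes and transcription factors. Of 45 genes, 39 were matched and 37 tested. Of these, 0 had an adjusted and 0 an unadjusted p-value under 0.05 in limma (5.16% of all genes had the latter). In 0 of the 37 the stages did not overlap, against 9.75% of all genes tested. Their log2 fold changes ran from -0.25 to 0.24, and the median over all genes tested was -0.0007.

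In the CRH system the 7 genes had a median log2 fold change of 0.06, with 4 above and 3 below 0, and it was -0.01 without prepubertal replicate 2 and 0.17 without pubertal replicate 2. NR3C1, the glucocorticoid receptor through which cortisol feeds back on CRH, was the most abundant, with 46.6, 42.7 and 43.0 FPKM across pubertal replicates 1 to 3, against 39.6, 46.9 and 40.0 FPKM across prepubertal replicates 1 to 3. The stages overlapped. CRHR2, the receptor UCN3 prefers, was between 0.827 and 1.22 FPKM, below CRHR1. UCN and UCN2, the other urocortins, did not exceed 0.639 FPKM in any library.

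The TRH system was represented by its receptor, its degrading enzymes and the thyroid hormone receptors, with 6 of 7 genes tested and a median log2 fold change of 0.002, which was 0.10 without pubertal replicate 3 and -0.02 without pubertal replicate 1. TRHR was between 3.45 and 5.62 FPKM, and TRHDE, the membrane enzyme that cleaves TRH, between 5.15 and 9.27 FPKM. The most abundant was THRA, a thyroid hormone receptor, with 90.7, 107 and 87.7 FPKM across pubertal replicates 1 to 3, against 99.7, 91.5 and 102 FPKM across prepubertal replicates 1 to 3. Its stages overlapped.

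Among the remaining SST receptors SSTR3 led, with between 3.02 and 5.91 FPKM, and SSTR5 did not exceed 0.279 FPKM. In the GHRH system, GHR, the growth hormone receptor that closes the feedback on GHRH, was the most abundant at 4.71 to 7.84 FPKM. GHSR, the receptor for ghrelin, was between 1.25 and 2.90 FPKM. GHRHR, the GHRH receptor of pituitary somatotropes, did not exceed 0.171 FPKM and fell under the minimum for a test. GHSR and GHR were highest in prepubertal replicate 2, as GHRH was, but lowest in pubertal replicate 2. GHRH itself was lowest in prepubertal replicate 3.

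The 12 genes of peptide processing and dense core granules all had a log2 fold change below 0, and none passed the test. Their median was -0.098, against -0.0007 over all genes tested. The count below 0 was 9 of 12 under quantile normalization and 11 of 12 on recovered fragments, and it was 10 or 11 of 12 with any 1 library left out. The 12 genes summed to between 2751 and 3064 FPKM in pubertal and between 3175 and 3471 FPKM in prepubertal libraries. These sums did not overlap, while the stages overlapped in each single gene. SCG2, a granin and the most abundant, measured 811, 685 and 591 FPKM across pubertal replicates 1 to 3, against 831, 870.2 and 765 FPKM across prepubertal replicates 1 to 3, with a log2 fold change of -0.25 and overlapping stages (adjusted p = 0.962 from limma). The neuronal markers SNAP25, SYT1 and RBFOX3 had log2 fold changes of -0.05, -0.17 and -0.08 in the same libraries, and their part in these values was not tested. Of 7 matched transcription factors of neuroendocrine neurons, ARNT2, the partner of SIM1, was the most abundant at 28.6 to 31.3 FPKM.

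**Figure D5:**
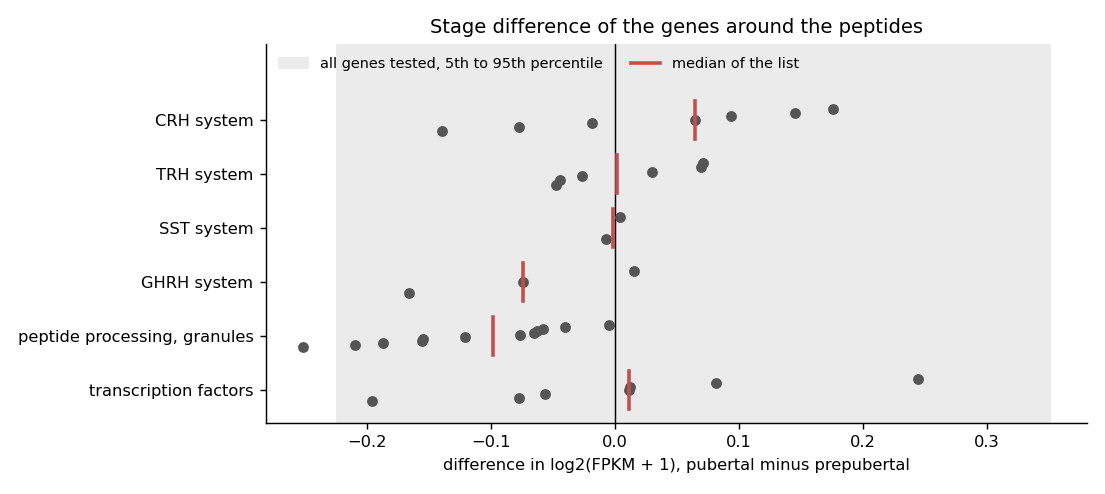
Difference in log2(FPKM + 1) between pubertal and prepubertal goats (horizontal axis) for the tested genes of 6 lists, each point a gene and each red line the median of its list. The points lie between -0.25 and 0.24, and the 12 genes of peptide processing lie left of 0.

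The tissue was checked against markers of its parts. SIM1 and OTP, factors of the paraventricular nucleus where CRH neurons lie, were at 3.03 to 4.11 FPKM and 0.411 to 1.16 FPKM. AVP was listed at 0 in all 6 libraries. MBP, which encodes myelin basic protein, was listed at 0 in prepubertal replicate 1 but at 3333 FPKM in pubertal replicate 1, so an exact 0 in this table was not read as absence of expression. The 7 matched markers of cortex, hippocampus and striatum, of 8, summed to between 26.6 and 28.6 FPKM in pubertal and between 18.8 and 26.5 FPKM in prepubertal libraries, so these sums did not overlap, by a narrow margin. Most of the sum was PPP1R1B, a striatal phosphatase inhibitor, at 11.7 to 19.9 FPKM. NEUROD6 was between 0.706 and 2.17 FPKM, SLC17A7 between 0.345 and 1.81 FPKM and TBR1 at most 0.229 FPKM, and the stages overlapped in each of the 7 genes.

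Among 7 pituitary markers, 6 were matched and tested, and in 2 of them, CGA and TSHB, the stages did not overlap. CGA, the shared subunit of the glycoprotein hormones, measured 50.1, 62.5 and 39.4 FPKM across pubertal replicates 1 to 3, against 2.24, 18.0 and 3.32 FPKM across prepubertal replicates 1 to 3. TSHB, the thyrotropin subunit, was at 2.46, 2.34 and 4.04 FPKM against 0.724, 1.85 and 0 FPKM. In both genes all pubertal libraries lay above the prepubertal ones, which was so for 5.91% of all genes tested, and neither passed the adjusted threshold (adjusted p = 0.639 and 0.795 from limma). The other 4 overlapped between the stages. LHB, the luteinizing hormone subunit, was between 0.306 and 1.16 FPKM in pubertal and between 0.707 and 0.957 FPKM in prepubertal libraries. FSHB and POU1F1 were listed at 0 in some libraries of each stage and were highest in pubertal replicate 3, at 1.09 and 0.539 FPKM. The sum of the 6 markers, most of it CGA, was between 52.8 and 66.0 FPKM in pubertal and between 3.75 and 20.9 FPKM in prepubertal libraries. GH1, the growth hormone gene, was listed at 0 in 5 libraries and at 7.79 FPKM in pubertal replicate 3, the library lowest in CRH and SSTR2. That library also had 309 FPKM of TTR, a choroid plexus gene, against 1.14 to 53.4 FPKM in the others. Of the other markers of that tissue, FOLR1 was highest in it at 1.78 FPKM. KL was highest in it at 2.70 FPKM, narrowly above 2.68 FPKM in prepubertal replicate 2. OTX2 was lowest in it at 1.15 FPKM. Pituitary cells also make CRHR1, SSTR1 and SSTR2, and the part of such cells in those values was not tested.

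The genes most like each peptide over the 6 libraries were found among 14080 genes with a mean of at least 1 FPKM, by Pearson r of log2(FPKM + 1), as a description. For GHRH they were C9H6orf118 (r = 0.987), ARHGAP36, an inhibitor of protein kinase A (0.985), and ZDHHC13, a protein palmitoyltransferase (0.979). ARHGAP36 was abundant, from 65.8 FPKM in pubertal replicate 3 to 97.8 FPKM in prepubertal replicate 2. For CRH they were TNFAIP6, a hyaluronan-binding protein (r = 0.991), LOC102174292 (0.988) and C23H6orf136 (0.987). For SST they were SCPEP1 (0.987), PURG (0.984) and DNASE2, a lysosomal nuclease (0.984). All points come from the same 6 libraries, and 59 or 60 of the 14080 genes had an r above 0.9 with each peptide. How many unrelated genes would reach such an r over 6 libraries was not tested, so the genes named are not read as related to the peptides.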

How the data were processed

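Hypothalamus RNA of 3 pubertal and 3 prepubertal goats was sequenced by the authors as strand-specific paired-end reads after removal of ribosomal RNA. Per the paper's methods, reads were aligned with TopHat and transcripts were assembled with Scripture and Cufflinks (Cufflinks and Cuffdiff 2.1.1 in the submitters' processing notes). The genome build is not given in the sources used here, so no coordinates are given. The authors deposited FPKM per transcript and library, normalized for transcript length and for a number of fragments per library. Their comparison table gave transcript lengths and gene identifiers, and its columns of fold changes, p-values and q-values were not used. The group FPKM in it equalled the mean of the 3 libraries within 1% for 99.8% of the transcripts above 0 in both groups. The lncRNA tables were not used here. Per-sample columns left unused numbered 0.

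FPKM was summed over the transcripts of a gene, and 19083 of 20225 genes (94.4%) could be given a symbol through the RefSeq table for assembly ARS1.2. Stages were compared with limma 3.58.1 under R 4.3.3 (two-sided, eBayes including a trend), taking log2(FPKM + 1) of genes with a mean of at least 0.1 FPKM, with Benjamini-Hochberg adjustment over all genes and a threshold of 0.05. Exact permutation tests over the libraries were two-sided. A nominal replicate is 1 goat. Fragments were recovered as FPKM multiplied by the transcript length less an offset and divided by the value of 1 fragment, both fitted per library on genes with 1 transcript of 800 to 8000 nt. Fragment counts of genes with several transcripts are sums. limma was tested on simulated data. Other steps ran in Python 3.11.15 with scipy 1.17.1.

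The genes and lists were chosen with earlier results of these data known. Genes named from the lists were those with an unadjusted p-value under 0.05 and the most abundant of each list, and for each peptide the 3 genes with the highest r. The other list genes named, and markers, were chosen after their values were seen. Alternatives were a pseudocount of 0.1 FPKM, no minimum and a minimum of 1 FPKM, quantile normalization, median centring, no trend, the replicate number as a block, single transcripts, leaving out each library, and, chosen after seeing the data, voom on recovered fragments of genes with a mean of at least 10.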

Additional observations from a re-analysis of the deposited data

How the results depend on the processing

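Over 15 alternatives, 107 of 118 log2 fold changes of the 8 genes kept the direction of the main comparison and no adjusted p-value passed 0.05. CRH, GHRH, SST, SSTR2 and UCN3 kept their direction in all alternatives run for them. CRHR1 was -0.03 and SSTR1 -0.041 under quantile normalization, and SSTR1 was -0.024 with median centring. With each library left out in turn, CRHBP ran from -0.11 to 0.28, CRHR1 from -0.12 to 0.20 and SSTR1 from -0.075 to 0.13, all crossing 0. GHRH ran from -0.48 without prepubertal replicate 3 to -0.03 without prepubertal replicate 2, and SSTR2 reached -0.37 without pubertal replicate 2. These left between 0 and 1 of the 8 genes with an unadjusted p-value under 0.05 (GHRH and SSTR2 in the 2 cases of -0.48 and -0.37) and 0 with an adjusted one. The count over all genes ran from 0 to 4 after adjustment, with 4 without pubertal replicate 2. It ran from 500 without prepubertal replicate 1 to 2220 without pubertal replicate 1 at an unadjusted p-value under 0.05. UCN3 ran to -0.80 with a pseudocount of 0.1 FPKM. It had no value at a minimum of 1 FPKM or on recovered fragments. The ratio of CRHBP to CRH ran from 0.21 to 0.37 with a library left out, CRHR1 to CRH from 0.10 to 0.53, SSTR1 to SST from 0.06 to 0.31, SSTR1 to SSTR2 from 0.04 to 0.38, and SSTR2 to SST from -0.25 to 0.19, above 0 without pubertal replicate 3. The cause of these moves was not tested. With the replicate block, 1 gene of the whole table passed the adjusted threshold and 0 of the 8. Deviations of libraries with the same number had r of -0.029, -0.107 and 0.088, so the numbers were not read as pairs.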

Other observations

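Pairs of the 8 genes were compared over the 6 goats, 28 correlations of log2(FPKM + 1) in all, and 0 passed 0.05 after adjustment. CRHR1 and SSTR1 had a Pearson r of 0.933 (exact permutation p = 0.00694, adjusted 0.136) with 0.943 as Spearman rho (exact permutation p = 0.0167, adjusted 0.467). Both were lowest in pubertal replicate 1 and highest in pubertal replicate 2. Without pubertal replicate 2 and prepubertal replicate 3, the libraries farthest from the median of CRHR1, r was 0.898 over 4 libraries, and with stage means subtracted it was 0.936. For CRH and UCN3 r was 0.938 (exact permutation p = 0.00972, adjusted 0.136) and rho 0.829 (exact permutation p = 0.0583, adjusted 0.544). Without pubertal replicate 3 and prepubertal replicate 3, the libraries farthest from the median of CRH, this r was 0.641 over 4 libraries. Leaving out the extremes narrows the range, so the drop cannot show what the correlation rests on. UCN3 had at most 9 fragments in a library. With stage means subtracted, the r of CRH and UCN3 was 0.921. For CRH and CRHBP r was 0.722 and rho 0.771 (exact permutation p = 0.0972 and 0.103, adjusted 0.804 and 0.719), and without the same 2 libraries r was 0.422, and with stage means subtracted 0.905. For CRH and SST rho was -0.886 (exact permutation p = 0.0333, adjusted 0.467), while r was -0.44 (exact permutation p = 0.34, adjusted 0.804), -0.84 without the same 2 libraries and -0.78 with stage means subtracted. With 3 libraries a stage, no correlation within a stage was computed.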
